A study of Mus musculus with 37 samples.

Results

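The clock output factors examined here are 6 transcription factors that lie downstream of the circadian clock: the PAR bZIP activators *Dbp*, *Tef* and *Hlf*, their bZIP competitor *Nfil3*, and the DEC repressors *Bhlhe40* (DEC1) and *Bhlhe41* (DEC2). They were chosen by symbol, as the 6 rows carrying these names among the 24016 genes of the deposited expression table. PolyA RNA was sequenced from bone marrow-derived macrophages (BMDMs) of WT C57BL/6J mice and of *Arntl*-/- mice, which lack the clock activator Bmal1 in the whole body and were made on a C57BL/6 background. The study describes the WT mice as littermate controls in its results, while its methods name C57BL/6J mice from a commercial breeder. All donors were male and 6 to 9 weeks old, and all marrow was grown with M-CSF for 6 days before treatment. Each genotype was sampled at 0, 6, 24 and 48 h after Kdo2-lipid A (KLA), a TLR4 ligand that forms part of LPS. Each of the 8 conditions had 1 library, so no difference between conditions had a replicate check and none was tested. The number of mice or cultures behind a library is not given in the sources used here.

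As background, the heterodimer of BMAL1 and CLOCK activates transcription from E-boxes, and *Dbp* and the DEC genes are known among its direct targets. DBP, TEF and HLF activate genes through a shared element, the D-box, whereas NFIL3 (E4BP4) binds the same element and represses. *Nfil3* is in turn known to be repressed by the REV-ERB receptors, and the DEC proteins bind E-boxes and oppose BMAL1 and CLOCK. In immune cells NFIL3 is best known for natural killer cell development and for repression of *Il12b* in macrophages, and DEC1 for restraining *Il10* in T cells.

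To show which of these elements lie next to the members' own start sites, the 250 bases before each start were read from RefSeq promoter sequences (GRCm38.p6), which held 6 windows for 5 of the 6 members. They were searched on both strands for the E-box CACGTG, the D-box TTANGTAA and the AGGTCA element of REV-ERB and ROR receptors, none of which overlapped another. Of 32817 windows of all genes, 6.02% held the E-box, 2.06% the D-box and 14.0% the AGGTCA element. Both starts of *Tef* and the start of *Bhlhe41* had an E-box, and *Nfil3* had AGGTCA on its other strand. The 4 windows with a match are shown 5′ to 3′ on the gene's strand, with the matched bases in capitals.
Tef, upstream start, window chr15:81802423-81802672, plus strand: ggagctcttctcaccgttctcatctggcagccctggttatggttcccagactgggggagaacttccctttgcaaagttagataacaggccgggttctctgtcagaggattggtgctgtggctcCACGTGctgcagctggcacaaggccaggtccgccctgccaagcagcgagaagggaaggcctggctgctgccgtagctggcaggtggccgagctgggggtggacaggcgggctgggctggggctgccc
Tef, downstream start, window chr15:81811164-81811413, plus strand: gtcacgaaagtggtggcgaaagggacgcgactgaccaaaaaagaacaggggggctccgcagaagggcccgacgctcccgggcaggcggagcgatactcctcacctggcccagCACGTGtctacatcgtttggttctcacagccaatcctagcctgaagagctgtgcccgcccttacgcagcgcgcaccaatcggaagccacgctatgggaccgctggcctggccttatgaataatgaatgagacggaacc
Bhlhe41, window chr6:145865421-145865670, minus strand: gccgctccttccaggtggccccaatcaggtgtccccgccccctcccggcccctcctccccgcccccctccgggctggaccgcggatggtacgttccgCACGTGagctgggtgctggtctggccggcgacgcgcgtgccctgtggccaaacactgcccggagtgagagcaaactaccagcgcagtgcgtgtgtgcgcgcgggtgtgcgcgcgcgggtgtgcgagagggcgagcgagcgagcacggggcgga
Nfil3, window chr13:52981040-52981289, minus strand: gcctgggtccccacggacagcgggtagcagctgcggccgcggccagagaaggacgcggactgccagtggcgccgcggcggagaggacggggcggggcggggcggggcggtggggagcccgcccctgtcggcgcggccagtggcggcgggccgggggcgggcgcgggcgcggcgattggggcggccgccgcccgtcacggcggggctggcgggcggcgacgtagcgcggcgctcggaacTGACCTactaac
The E-box lay 127 to 122 bases before the upstream start of *Tef*, 138 to 133 bases before its downstream start and 153 to 148 bases before the start of *Bhlhe41*. In *Nfil3* the letters TGACCT, the same element read on the opposite strand, lay 12 to 7 bases before the start. The windows of *Dbp* (chr7:45704997-45705246, plus strand) and *Hlf* (chr11:90390918-90391167, minus strand) held none of these letters. A match is a string of letters and not a measured binding site.

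The libraries held 8587560 to 27036783 reads on genes, the fewest in *Arntl*-/- BMDMs at 48 h and the most in WT BMDMs at 6 h. Values are FPKM (fragments per kb of exon, here per 10000000 reads) divided by a size factor for each library (0.918 to 1.13), and ratios were taken on log2(scaled FPKM + 0.1). Intervals in brackets cover the counting of reads at the 95% level only, and not the variation between cultures. A change is counted when it exceeds 1.5-fold, and shares of all genes refer to the 9897 with a mean of at least 50 scaled reads. All 10 macrophage markers listed, among them *Csf1r* and *Lyz2*, passed this filter and none differed 1.5-fold between the genotypes at any time. *Arntl* itself was 34.3, 32.3, 35.6 and 38.7 scaled FPKM in WT BMDMs and 13.9, 11.3, 18.8 and 20.2 in *Arntl*-/- BMDMs, a mean log2 ratio of -1.16. The table gives 1 value for the whole transcript, so the deleted exons could not be looked at separately. Of 11 listed KLA-responsive genes that passed the filter, 8 rose past 1.5-fold in WT BMDMs by 6 h and 1 fell. The one that fell, the acute-phase gene *Saa3*, went from 5559 to 3293 scaled FPKM, while in *Arntl*-/- BMDMs it went from 3035 to 4878. In the WT library at 6 h every macrophage marker listed except *Mertk* (log2 change 0.18) was also below its 0 h level. These changes ran from -0.03 for *Fcgr1* to -0.59 for *Itgam*. That library was the deepest, and at most 3 tags were counted per position. The part of this limit in the fall of *Saa3* was not tested. Among the KLA-responsive genes, the 2 with the largest rise were *Nos2* and *Ifit1*. *Nos2*, the inducible nitric oxide synthase, went from 11.9 to 105 scaled FPKM, and the interferon-induced *Ifit1* from 24.0 to 170.

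Of the 6 factors, 5 passed the filter and are called expressed below, and 1 was at the limit of detection. For *Dbp* this is a label only, since its reads may come from an overlapping gene. Per length of transcript, *Bhlhe41* had the highest mean level over the 4 WT libraries, 144 scaled FPKM, followed by *Tef* at 112, *Bhlhe40* at 97.5, *Nfil3* at 63.9 and *Dbp* at 44.9. The order was the same in *Arntl*-/- BMDMs, with means of 165, 131, 124, 103 and 43.7. Neighbours in this order overlapped in their ranges over time in both genotypes. *Nfil3* was the factor that differed most between the genotypes, and *Bhlhe40* was the only one whose *Arntl*-/- libraries all lay above its WT libraries. *Dbp* and *Bhlhe41* reached their highest WT level at 48 h.

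**Figure D1:**
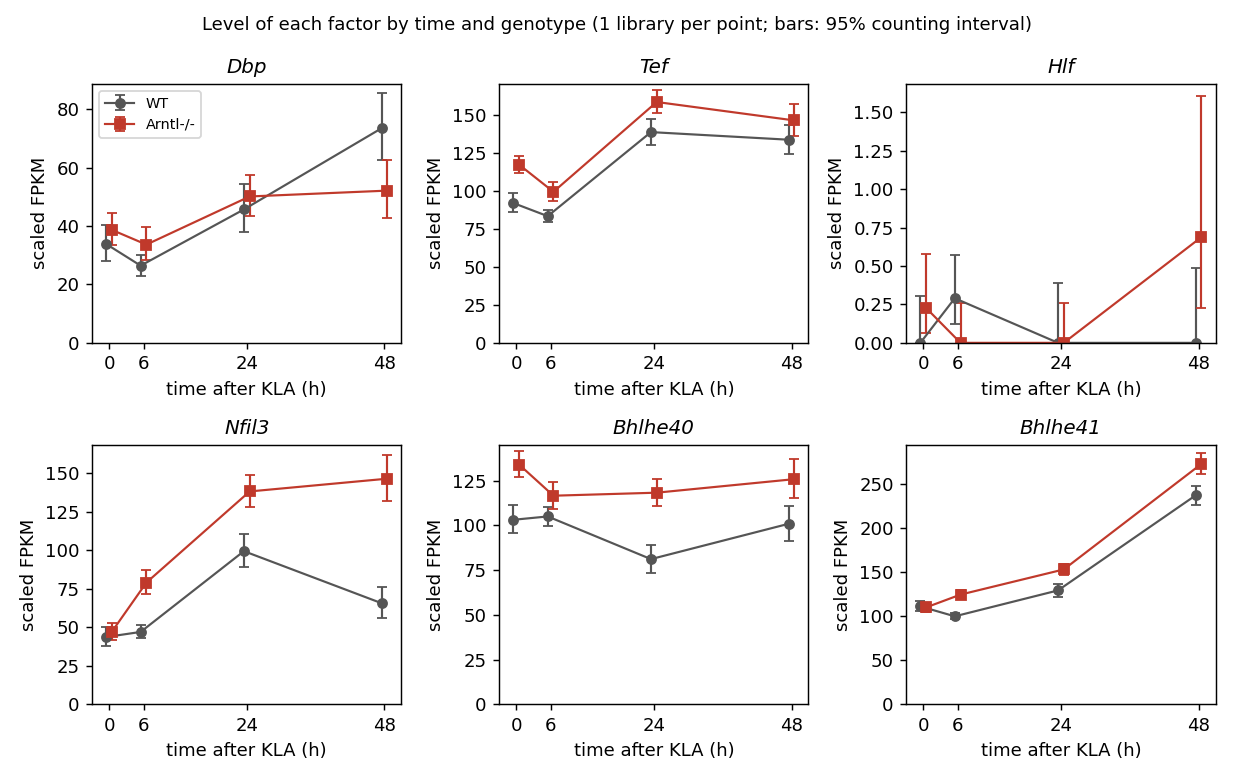
Scaled FPKM of the 6 factors against hours after KLA, in WT (grey circles) and *Arntl*-/- (red squares) macrophages, 1 library per point, with bars for the 95% counting interval. *Nfil3* reached 146 in *Arntl*-/- BMDMs at 48 h against 65.6 in WT BMDMs, *Bhlhe40* was higher in *Arntl*-/- BMDMs at every time, and *Hlf* was at most 0.688.

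Among the PAR bZIP activators, *Dbp* is a classical readout of clock output because its rhythm is large in many tissues. *Dbp* (NM_016974, chr7:52960617-52965573, plus strand, mm9) measured 33.8, 26.4, 45.7 and 73.5 scaled FPKM in WT BMDMs at 0, 6, 24 and 48 h, from 120 to 216 reads. In *Arntl*-/- BMDMs it measured 38.7, 33.7, 50.1 and 52.2, from 112 to 210 reads. The *Arntl*-/- library was the higher one at 0, 6 and 24 h and the lower one at 48 h, and the ranges of the genotypes overlapped. The log2 ratio of *Arntl*-/- to WT was 0.19 (-0.14 to 0.53), 0.35 (0.03 to 0.66), 0.13 (-0.19 to 0.46) and -0.49 (-0.86 to -0.14) at the 4 times. Its mean was 0.04 ± 0.37 (SD over the 4 times), and 0.22 without the 48 h libraries. From 0 to 48 h *Dbp* rose 2.17-fold in WT BMDMs and measured 1.35-fold its starting level in *Arntl*-/- BMDMs. The log2 change in *Arntl*-/- BMDMs minus that in WT BMDMs was -0.69 at 48 h (-1.16 to -0.21).

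The reads assigned to *Dbp* need not all come from *Dbp*. Its last 741 bases on the genome lie inside *Sphk2*, the sphingosine kinase 2 gene, which is transcribed from the opposite strand, and reads were counted without regard to strand. In the GENCODE M1 annotation of the same build, 491 bases are exon of both genes, beside a length of 1672 bases for the counted *Dbp* transcript. *Sphk2* was more abundant per length than *Dbp* in all 8 libraries, with 207 to 259 scaled FPKM in WT BMDMs and 208 to 260 in *Arntl*-/- BMDMs, and a mean log2 ratio of 0.04. Reads of the overlap cannot be told apart, so the fold changes of *Dbp* stand for the sum of both sources there.

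*Tef*, thyrotroph embryonic factor, had the smallest SD over time of the genotype ratio among the members kept, with the size factors used here. This rank depended on the scaling. With the values as deposited the log2 ratio ran from 0.12 (6 h) to 0.43 (0 h) for *Tef*, a wider span than 0.07 to 0.29 for *Bhlhe41*. *Tef* (NM_017376, chr15:81641844-81657293, plus strand, mm9) measured 92.1, 83.5, 139 and 134 scaled FPKM in WT BMDMs and 117, 99.5, 159 and 147 in *Arntl*-/- BMDMs, from 757 to 1729 reads. The *Arntl*-/- library was above the WT library at each time, while the ranges over time overlapped. The log2 ratio was 0.35 (0.23 to 0.47), 0.25 (0.14 to 0.36), 0.19 (0.08 to 0.31) and 0.13 (-0.01 to 0.28), with a mean of 0.23 ± 0.09 (SD over the 4 times). None of these ratios passed 1.5-fold. In WT BMDMs *Tef* at 24 h was 1.51-fold its level at 0 h, just past the line, and at 48 h it was 1.45-fold, just under it. With the values as deposited the log2 change at 24 h was 0.56, which is within the line. In *Arntl*-/- BMDMs the same changes were 1.35-fold and 1.25-fold.

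*Hlf*, the third PAR bZIP gene and one known from liver, brain and blood stem cells, was close to undetected. *Hlf* (NM_172563, chr11:90197849-90252231, minus strand, mm9) had 0, 8, 0 and 0 reads in WT BMDMs at the 4 times and 4, 0, 0 and 5 reads in *Arntl*-/- BMDMs. These reads came to 0.290 scaled FPKM in WT BMDMs at 6 h, and to 0.227 and 0.688 in *Arntl*-/- BMDMs at 0 and 48 h. In the libraries without a read, the floor of 3 reads stood for 0.209 to 0.397 scaled FPKM, and the counting interval reached up to 0.257 to 0.489. *Hlf* was therefore not detectable as different between the genotypes at this depth, and it did not pass the filter. With *Hlf* nearly absent, the summed PAR bZIP level was that of *Tef* and *Dbp*, and *Tef* measured 1.82 to 3.17 times the level of *Dbp* in the 8 libraries. The lowest of these ratios, 1.82 (1.54 to 2.16), was that of WT BMDMs at 48 h, where *Dbp* was highest.

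*Nfil3*, the repressor that competes for the D-box, showed the largest genotype difference and the largest single change after KLA among the 5 expressed members. *Nfil3* (NM_017373, chr13:53062578-53076408, minus strand, mm9) measured 43.7, 47.0, 99.4 and 65.6 scaled FPKM in WT BMDMs at 0, 6, 24 and 48 h, from 174 to 456 reads. In *Arntl*-/- BMDMs it measured 47.2, 79.0, 138 and 146, from 293 to 688 reads. The resting levels were close, the *Arntl*-/- level was the higher one at each later time, and from 24 to 48 h the WT level was lower while the *Arntl*-/- level was not. The log2 ratio was 0.11 at 0 h (-0.16 to 0.39), 0.75 at 6 h (0.55 to 0.95), 0.47 at 24 h (0.28 to 0.67) and 1.16 at 48 h (0.90 to 1.43). These are 1.68-fold at 6 h and 2.23-fold at 48 h, both past the line, and 1.39-fold at 24 h, within it. Among the 9897 genes, 44 had a higher ratio at 6 h and 42 at 48 h. The mean log2 ratio was 0.62 ± 0.44 (SD over the 4 times), with 34 genes above it. It was 0.45 without the 48 h libraries and 0.79 without the 0 h libraries.

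The course of *Nfil3* after KLA was followed within each genotype. In *Arntl*-/- BMDMs it was 1.67-fold above its resting level at 6 h, 2.92-fold at 24 h and 3.10-fold at 48 h, and each passed the line. In WT BMDMs the same changes were 1.08-fold at 6 h, 2.27-fold at 24 h and 1.502-fold at 48 h. The last of these sat on the line and came to a log2 change of 0.45, within 1.5-fold, with the values as deposited. The log2 change in *Arntl*-/- BMDMs exceeded that in WT BMDMs by 0.64 (0.31 to 0.97) at 6 h, by 0.36 (0.04 to 0.69) at 24 h and by 1.05 (0.67 to 1.42) at 48 h. These 3 differences share the 0 h libraries, and no test of them was possible with 1 library per condition. The WT library at 6 h was the deepest of the 8, and at most 3 tags were counted per position.

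The balance of D-box activators to repressor was read within each library, where no scaling between libraries enters. The summed level of *Dbp*, *Tef* and *Hlf* was 2.89 (2.46 to 3.39), 2.35 (2.12 to 2.60), 1.86 (1.64 to 2.10) and 3.16 (2.68 to 3.73) times that of *Nfil3* in WT BMDMs at 0, 6, 24 and 48 h. In *Arntl*-/- BMDMs it was 3.31 (2.92 to 3.76), 1.69 (1.502 to 1.893), 1.51 (1.38 to 1.65) and 1.36 (1.204 to 1.540) times that of *Nfil3*. The counting intervals of the genotypes overlapped at 0 h and, narrowly, at 24 h, and were apart at 6 and 48 h. In WT BMDMs the ratio at 48 h was back above that at 0 h, whereas in *Arntl*-/- BMDMs it was lowest at 48 h.

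**Figure D2:**
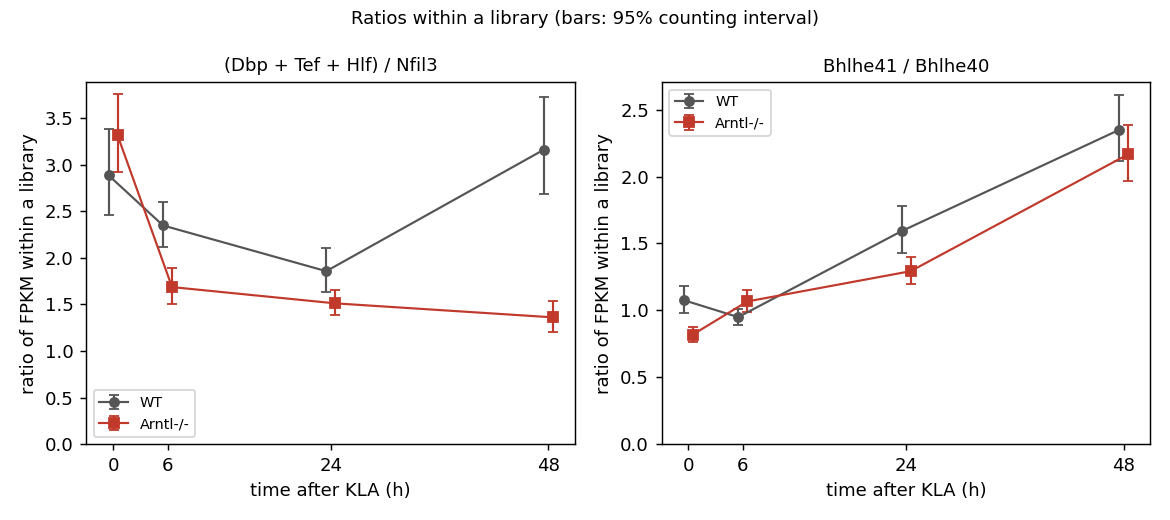
Ratios of FPKM within each library against hours after KLA in WT (grey circles) and *Arntl*-/- (red squares) cells, with bars for the 95% counting interval: summed PAR bZIP genes over *Nfil3* on the left, *Bhlhe41* over *Bhlhe40* on the right. The left ratio parted at 48 h, 3.16 in WT BMDMs against 1.36 in *Arntl*-/- BMDMs, while the right ratio climbed in both genotypes to above 2.

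*Bhlhe40*, the DEC1 repressor, was the one member whose genotypes did not overlap, and like *Tef* it was already higher in resting *Arntl*-/- BMDMs. *Bhlhe40* (NM_011498, chr6:108610623-108616919, plus strand, mm9) measured 103, 105, 81.1 and 101 scaled FPKM in WT BMDMs and 134, 117, 118 and 126 in *Arntl*-/- BMDMs, from 418 to 1593 reads. The lowest *Arntl*-/- library, 117 at 6 h, was above the highest WT library, 105 at 6 h, so no library of one genotype lay within the range of the other. With the values as deposited the gap nearly closed, at 119 FPKM in the lowest *Arntl*-/- library (48 h) against 118 in the highest WT library (6 h), and the log2 ratio at 6 h was 0.02. This pattern was shown by 0.707% of all genes. No member had all *Arntl*-/- libraries below all WT libraries, as 0.556% of all genes did. The log2 ratio was 0.38 (0.24 to 0.51), 0.15 (0.03 to 0.27), 0.54 (0.38 to 0.71) and 0.32 (0.13 to 0.51), with a mean of 0.35 ± 0.16 (SD over the 4 times) and 245 genes above it. No single time passed 1.5-fold, although the ratio at 24 h was 1.46-fold and passed the line with the values as deposited. From 0 h, no log2 change after KLA passed the line in either genotype, and they ran from -0.35 to 0.03. Its first 306 bases on the genome overlap the locus 0610040F04Rik on the opposite strand, which measured 6.21 to 12.1 scaled FPKM.

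*Bhlhe41*, the DEC2 repressor and partner of DEC1, was higher at 48 h than at 0 h in both genotypes. *Bhlhe41* (NM_024469, chr6:145806763-145813940, minus strand, mm9) measured 111, 99.7, 129 and 237 scaled FPKM in WT BMDMs and 110, 124, 153 and 273 in *Arntl*-/- BMDMs, from 1295 to 2917 reads. The resting levels were nearly equal and the *Arntl*-/- library was the higher one at 6, 24 and 48 h. The log2 ratio was -0.01 (-0.11 to 0.08), 0.32 (0.23 to 0.40), 0.24 (0.14 to 0.34) and 0.20 (0.11 to 0.29), with a mean of 0.19 ± 0.14 (SD over the 4 times). At 48 h *Bhlhe41* was 2.13-fold above its 0 h level in WT BMDMs and 2.48-fold in *Arntl*-/- BMDMs, while no earlier change passed the line. Its 6 h change was -0.15 on the log2 scale in WT BMDMs and 0.18 in *Arntl*-/- BMDMs, and with the values as deposited the WT change was 0.00. With *Bhlhe40* within 1.5-fold of its resting level throughout, the ratio of *Bhlhe41* to *Bhlhe40* was 1.08, 0.9498, 1.59 and 2.35 in WT BMDMs and 0.820, 1.07, 1.29 and 2.17 in *Arntl*-/- BMDMs.

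**Figure D3:**
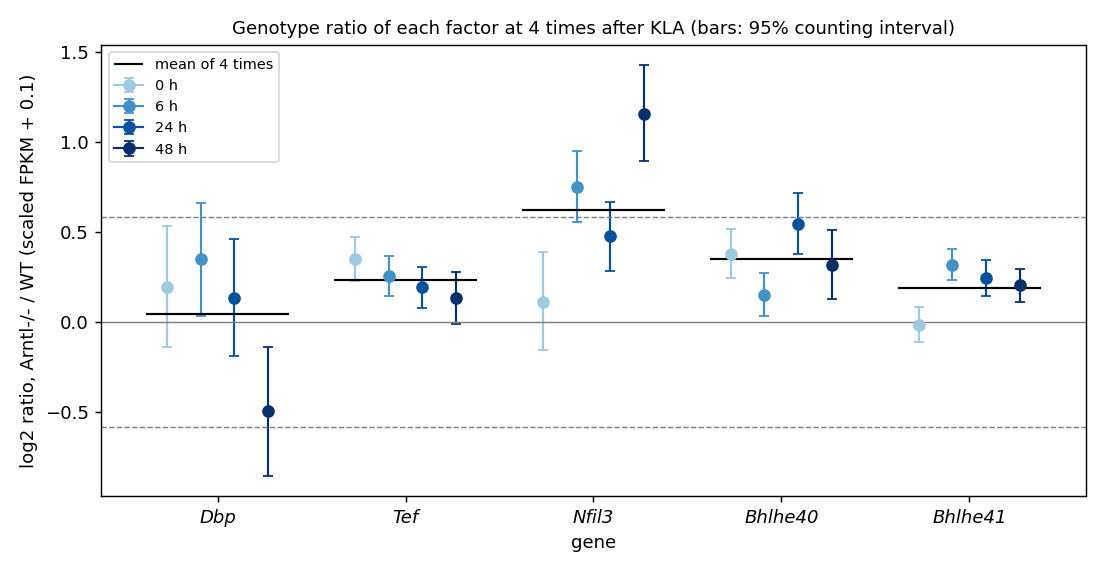
Log2 ratio of *Arntl*-/- to WT for the 5 expressed factors, with 1 point per time after KLA from light (0 h) to dark (48 h), bars for the 95% counting interval, black lines for the mean of the 4 times and dashed lines at 1.5-fold. *Nfil3* passed the upper line at 6 h (0.75) and 48 h (1.16), and *Dbp* was the only factor with a ratio well below 0, -0.49 at 48 h.

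Counted over the 5 members that passed the filter, no member was 1.5-fold higher in *Arntl*-/- BMDMs at 0 h, 1 was at 6 h, 0 were at 24 h and 1 was at 48 h, and each time it was *Nfil3*. Among all genes the shares that were higher at these times were 2.44%, 1.9%, 2.92% and 4.79%. No member was 1.5-fold lower at any time, against shares of 1.5%, 1.79%, 2.04% and 4.7% of all genes. At all 4 times together 0.101% of all genes were higher and 0.101% were lower, and none of them was a member. At the 2-fold line the count at 6 h was 0 and that at 48 h was 1. The counts of 1 of 5 rest on *Nfil3* alone and say nothing of the group as a whole.

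After KLA, 0 members had risen past 1.5-fold in WT BMDMs at 6 h, 2 at 24 h (*Tef* and *Nfil3*) and 3 at 48 h (*Dbp*, *Nfil3* and *Bhlhe41*), against 4.33%, 7.8% and 12.3% of all genes. In *Arntl*-/- BMDMs 1 member had risen at 6 h and 1 at 24 h, both times *Nfil3*, and 2 at 48 h (*Nfil3* and *Bhlhe41*), against 2.75%, 7.31% and 14.6% of all genes. As deposited, 1 member had risen in WT BMDMs at 24 h, without *Tef*, and 2 had at 48 h, without *Nfil3*. The count of 2 at 48 h was also that with upper-quartile scaling and with a pseudocount of 1. At 48 h *Bhlhe41* and *Nfil3* were past the line in both genotypes and *Dbp* in WT BMDMs. After a lowess correction for expression level *Dbp* was past it in *Arntl*-/- BMDMs too, at a log2 change of 0.59 against 0.43 without the correction. The comparisons with 0 h within a genotype share the 0 h library. No untreated library at 6, 24 or 48 h was analysed here, so KLA and time in culture cannot be told apart in these changes.

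**Figure D4:**
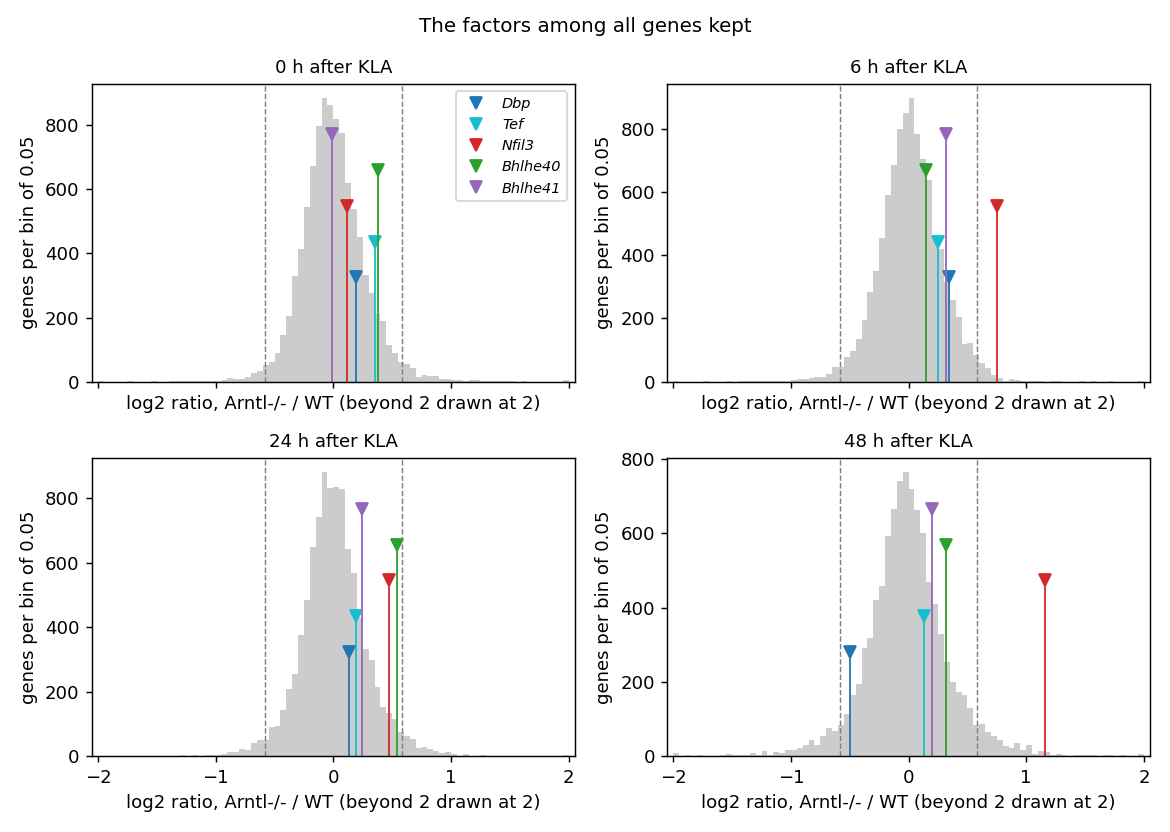
Distribution of the genotype ratio (log2, *Arntl*-/- to WT) across the 9897 genes kept (grey bars, genes per bin of 0.05) at each time after KLA, with the 5 expressed factors as coloured markers at arbitrary heights and dashed lines at 1.5-fold. At 6 and 48 h *Nfil3* lay in the upper tail, with 44 and 42 genes above it, and *Dbp* at 48 h lay in the lower flank.

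The members' own courses over the 8 libraries were compared as a description, since the libraries share 2 genotypes and 4 times and are not independent. Pearson's r of log2 values was 0.84 between *Dbp* and *Bhlhe41*, 0.83 between *Dbp* and *Tef* and 0.81 between *Tef* and *Nfil3*. *Bhlhe40* followed none of the others, with r from -0.07 to 0.13. Of all genes kept, those most like *Nfil3* were *Egln1*, an oxygen-sensing prolyl hydroxylase (r = 0.97), the integrin gene *Itga1* (0.96) and the cytochrome P450 gene *Cyp4v3* (0.96). For *Dbp* they were *Knop1* (0.995), *Gm608* (0.99) and *Bag6* (0.98), and for *Tef* they were *Ing2* (0.99), *Setd7* (0.97) and *Arhgef6* (0.97). For *Bhlhe40* they were *Aspscr1* (0.97), *Rbm45* (0.95) and *AU040320* (0.94), and for *Bhlhe41* they were *Grina*, *Nucb1* and *Fam162a* (0.99, 0.99 and 0.98). The 8 points behind each r share genotypes, times and depths.

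The other genes of the clock were taken for comparison from lists of known E-box genes and D-box genes. Of 10 E-box clock genes, 8 passed the filter, and 2 were higher and 2 lower in *Arntl*-/- BMDMs at all 4 times. The lower ones were the REV-ERB genes *Nr1d1*, from 26.2 to 44.5 scaled FPKM in WT BMDMs and 10.00 to 19.6 in *Arntl*-/- BMDMs, and *Nr1d2*, from 60.2 to 95.4 and 2.76 to 6.15. The higher ones were the repressor genes *Per2*, from 5.67 to 15.2 scaled FPKM in WT BMDMs and 24.0 to 34.7 in *Arntl*-/- BMDMs, and *Cry1*, from 35.7 to 53.5 and 154 to 208. Their mean log2 ratios were -1.28 for *Nr1d1*, -4.33 for *Nr1d2*, 1.66 for *Per2* and 2.07 for *Cry1*, each larger in size than that of any output factor. The list of 13 D-box and PAR bZIP targets had 10 genes kept, and the same 4 genes, which both lists hold, were its only ones past 1.5-fold at all 4 times. The median of the mean log2 ratios was 0.15 for the E-box list and 0.02 for the D-box list, beside 0.00 for all genes. Of the activator arm (*Arntl*, *Arntl2*, *Clock* and *Npas2*), 2 genes were kept and *Arntl* alone was lower at all 4 times.

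**Figure D5:**
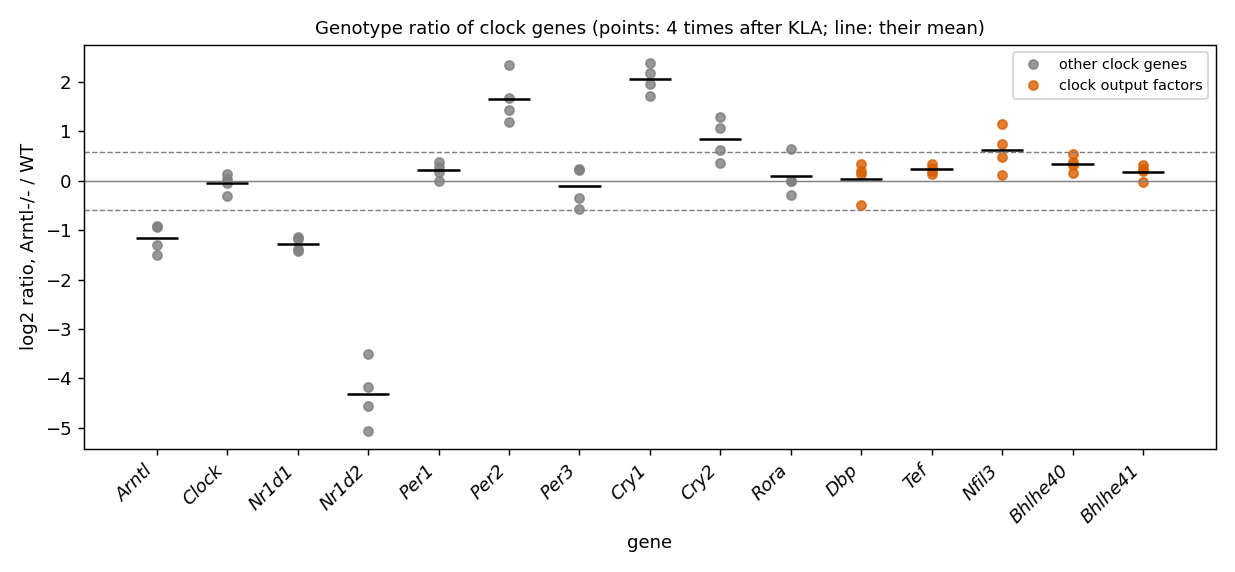
Log2 ratio of *Arntl*-/- to WT for clock genes kept (grey) and the 5 expressed output factors (orange), with 1 point per time after KLA, black lines for the mean of the 4 times and dashed lines at 1.5-fold. The means of *Nr1d2* (-4.33), *Cry1* (2.07) and *Per2* (1.66) lay outside the span of the output factors, whose means ran from 0.04 to 0.62. So did those of *Nr1d1* (-1.28), *Arntl* (-1.16) and *Cry2* (0.84), and by less those of *Per3* (-0.11) and *Clock* (-0.04). *Per1* (0.21) and *Rora* (0.09) lay inside it.

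Related factors outside the members were examined by list. Of 7 genes listed as C/EBP relatives, 6 were kept and 0 differed 1.5-fold at all 4 times, with 2 lower at 0 h and 1 higher at each of 6 and 48 h. The list holds *Cebpz*, which shares the name but is not a bZIP factor, beside bZIP factors of another branch. Of 10 HES and HEY genes, the repressors most closely related to the DEC proteins, only *Hes6* was kept, it stayed within 1.5-fold at each time, and 5 were at 3 reads or fewer in all 8 libraries. Among genes known to be repressed by NFIL3 or DEC factors in immune cells, *Maf* was kept and did not differ 1.5-fold at any time. *Maf*, a macrophage transcription factor, had a mean of 824 scaled FPKM in WT BMDMs and 794 in *Arntl*-/- BMDMs. The cytokine genes *Il12b* and *Il10* were below the filter. *Il12b*, the p40 chain of IL-12, measured 1.70, 1.48, 0 and 0.772 scaled FPKM in WT BMDMs at the 4 times, from 7, 14, 0 and 2 reads, and 2.64, 3.65, 5.14 and 2.41 in *Arntl*-/- BMDMs, from 16, 18, 25 and 6 reads. Its *Arntl*-/- library was the higher one at each time, and the log2 ratio at 6 h was 1.25 (0.22 to 2.43). The intervals at 0 h (-0.73 to 2.16) and 48 h (-0.84 to 4.98) held 0. *Il10*, an anti-inflammatory cytokine gene, measured 14.9, 17.5, 11.03 and 15.6 scaled FPKM in WT BMDMs, from 24 to 111 reads, and 18.2, 20.3, 18.4 and 3.60 in *Arntl*-/- BMDMs, from 6 to 74 reads. It was lower in *Arntl*-/- BMDMs at 48 h, with a log2 ratio of -2.08 (-3.68 to -0.81) that rests on 6 reads. At the other times *Il10* was higher, but the intervals at 0 h (-0.28 to 0.88) and 6 h (-0.24 to 0.67) held 0.

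Markers of other cells were measured beside these results. Of 8 fibroblast and stromal markers, 5 were kept, their median mean log2 ratio was -0.42, and *Col3a1* was lower in *Arntl*-/- BMDMs at all 4 times. Their summed level ran from 395 to 1086 scaled FPKM in WT BMDMs and from 306 to 671 in *Arntl*-/- BMDMs, and at 48 h 4 of the 5 in WT BMDMs and all 5 in *Arntl*-/- BMDMs were past 1.5-fold above 0 h. Of 6 neutrophil markers in the table, the 2 kept (*S100a8* and *S100a9*) had a median mean log2 ratio of 0.58, 2 others were at 3 reads or fewer in all 8 libraries, and the summed level was 491 to 928 scaled FPKM in WT BMDMs and 821 to 977 in *Arntl*-/- BMDMs. Both were past 1.5-fold higher in *Arntl*-/- BMDMs at 6 h, as *Nfil3* was, at 514 against 282 scaled FPKM for *S100a8* and 428 against 207 for *S100a9*. Of the 2, 1 was also past 1.5-fold higher at 0 h and 1 at 24 h, when *Nfil3* was within the line. At 48 h neither was, at 905 against 910 and 9.00 against 10.1. From 0 to 48 h *S100a8* was 2.95-fold higher in WT BMDMs and 2.26-fold higher in *Arntl*-/- BMDMs, whereas *S100a9* was 16.0-fold and 44.3-fold lower, down to 7 and 6 reads. Over the same interval 6 of the 10 macrophage markers in WT BMDMs and 7 in *Arntl*-/- BMDMs passed 1.5-fold upward. No T cell, B cell or dendritic cell marker passed the filter, and their summed levels stayed at or below 14.8, 60.2 and 3.01 scaled FPKM. In these bulk samples fewer cells of a type and less RNA per cell cannot be told apart, and the part of stromal, neutrophil or macrophage marker shifts in the levels of the members was not tested.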

How the data were processed

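PolyA RNA-seq of BMDMs was analyzed in 8 libraries, 1 for each genotype and time, grouped by their labels. ChIP-seq samples were not analysed here. The authors aligned reads to mm9 with STAR and used HOMER to count tags over the exons of RefSeq transcripts irrespective of strand, with at most 3 tags per position and 1 transcript per gene. They deposited FPKM values scaled to 10000000 reads. Of 12 value columns, 4 were not used, and 1 fragment line of the table was left out.

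FPKM multiplied by length in kb fell on whole multiples of 1 read (100% of low values, tolerance 0.1 read), which gave the reads behind each value. Median-of-ratios size factors were then applied to the deposited FPKM, and genes with a mean of at least 50 scaled reads per 10000000 were kept. Intervals are exact Poisson intervals for levels and exact conditional binomial intervals for ratios, both at 95%, with 3 reads as the floor. Intervals of ratios within a library, of means and of differences between changes are normal approximations on the log scale from the same read counts. With 1 library per condition, no test was run.

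Named were the members, *Arntl*, genes of each list past 1.5-fold in 1 direction at all 4 times, the 2 KLA-responsive genes with the largest WT change by 6 h, genes known to be repressed by NFIL3 or DEC factors (1 of them is not reported here), and the 3 genes most correlated with each expressed member. *Sphk2* and 0610040F04Rik were named for their overlap with a member and *Hes6* as the 1 gene kept of its list. A few markers and the other clock genes drawn were named as examples. These were named after their values were seen. The members and lists were chosen with earlier results of these data known. Promoter sequences are from RefSeq (GRCm38.p6), and exon overlaps from GENCODE M1.

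Alternatives were upper-quartile scaling, the deposited values without size factors, a lowess correction (fraction 0.3), pseudocounts of 1 and 0.01, a 2-fold line, minimums of 10 and 100 scaled reads or no filter, and each time left out. The steps were tested on simulated data. Software comprised scipy 1.17.1, statsmodels 0.14.6, matplotlib 3.10.9, pandas 2.3.3 and numpy 2.4.6 under Python 3.11.15.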

Additional observations from a re-analysis of the deposited data

Results flagged for a closer look

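*Dbp* was singled out because its genotype difference had opposite signs at 2 times. The log2 ratio of *Arntl*-/- to WT was 0.35 at 6 h and -0.49 at 48 h. With the size factors used, each counting interval left out 0, at 6 h only just (0.03 to 0.66). Intervals were not worked out for the alternatives. Over the scaling and pseudocount alternatives the 6 h value ran from 0.21 to 0.45 and the 48 h value from -0.52 to -0.45. The difference between the times was not tested, since each time had 1 library per genotype, and the overlap with *Sphk2* applies to both values.

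*Bhlhe41* was singled out because its change from 0 to 6 h had opposite signs in the genotypes, -0.15 on the log2 scale in WT cells and 0.18 in *Arntl*-/- cells. The difference was not tested. With the values as deposited the WT change was 0.00 and the *Arntl*-/- change 0.12, so the opposite signs were absent there.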

How the results depend on the processing

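Over the alternatives, 368 of 389 values and counts of the members moved by less than their counting interval or stayed within 1.5 times, 21 moved further, and 0 values past the line changed sign. No replicate could be left out, since each condition had 1 library. Without each time in turn, the mean log2 ratio ran from -0.056 to 0.22 for *Dbp*, from 0.45 to 0.79 for *Nfil3* and from 0.14 to 0.25 for *Bhlhe41*. For *Dbp* the high end was the mean without 48 h, and the sign was negative without 0 h (-0.005) and without 6 h (-0.056). With the values as deposited, *Bhlhe40* made 1 member higher in *Arntl*-/- cells at 24 h, and *Tef* left 1 member risen in WT cells at 24 h. *Nfil3* in WT cells at 48 h, past the line at 0.59, fell under it as deposited (log2 0.45), with upper-quartile scaling (0.52) and with a pseudocount of 1 (0.58). After the lowess correction *Tef* passed it in WT cells at 48 h (0.61), making 4 members, and *Dbp* passed it in *Arntl*-/- cells at 48 h (0.59), making 3. At the 2-fold line the members higher in *Arntl*-/- cells at 6 h were 0, those risen in WT cells at 24 h were 1, and those risen in *Arntl*-/- cells at 6 h were 0. The count of members with all *Arntl*-/- libraries above all WT libraries was 1 with each scaling tried. No paired analysis was possible because the labels number no replicates that could be paired. The genotypes were matched by time only, in the ratios at each time and their mean and SD over 4 times, and no test was run on these.

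Scaling shifted the median log2 ratio of all genes by over 0.1 at 6 h, from -0.12 as deposited to 0.01. The shares of all genes past 1.5-fold depended on the filter: 33 of 54 moved by over 1.5 times. At 48 h the share higher in *Arntl*-/- cells was 9.13% with a minimum of 10 scaled reads, 2.97% with 100 and 15.5% without a filter. The genes added by a lower minimum have few reads. Depth limits *Hlf* most, and *Dbp*, with 112 to 216 reads, had the widest intervals of the members kept.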
